A study of Mus musculus with 14 samples.

Results

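Shld1, listed in the count tables under its earlier symbol 1110034G24Rik, was followed with 7 genes of the DNA repair pathway in which its protein works: Trp53bp1, Rif1, Mad2l2, Brca1, Bard1, Rnf8 and Rnf168. These 8 genes, out of 23337 gene symbols in the tables, were listed by name. Shld1 was chosen by its CPM, the counts of a gene in every 1000000 counts of a library, which differed between genotypes in these same libraries, so its genotype values are given as a description with no test. The other 7 genes were listed for their place in the pathway and were tested. RNA was sequenced from mouse tissue, from wildtype (WT) animals and from animals with a conditional knockout (cKO) of Thap1: 3 WT and 3 cKO samples of dissected striatum, and 4 WT and 4 cKO samples of cerebellum. All came from mice on the C57Bl/6 background that were 6 months old, and the WT controls were littermates that carried no further stated treatment. The sources used here do not give the Cre driver, the exons of Thap1 that were removed or any sequencing batch. Nothing in them says whether a striatal and a cerebellar sample came from the same mouse, or that each replicate is a separate mouse, so the p-values cover no more than how far these samples spread, which may be technical.

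When both strands of DNA break, the ubiquitin ligases RNF8 and RNF168 mark the histones around the break, and 53BP1, the product of Trp53bp1, binds that marked chromatin. 53BP1 recruits RIF1, which in turn brings in shieldin, a complex of SHLD1, SHLD2, SHLD3 and REV7 (encoded by Mad2l2). Shieldin binds the end and limits its resection, the trimming that exposes single-stranded DNA, and so favours direct joining of the ends. BRCA1 and its partner BARD1 act in the opposite direction and promote resection and repair by homologous recombination, which needs a sister copy and therefore serves dividing cells. The pathway is best known from antibody class switching in B lymphocytes and from tumours that lack BRCA1, and less from the adult brain, where most neurons no longer divide. THAP1 binds DNA through a zinc finger and is mutated in the movement disorder DYT6 dystonia, and SHLD1 has been described as a gene whose transcription depends on it.

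The striatal libraries held 12595941 to 14258141 counts and the cerebellar ones 19458954 to 28099205. CPM were scaled with TMM factors within each tissue unless a scale common to the 14 libraries is named, and all sums over marker genes are on that common scale. A gene is called here when its adjusted p, over all genes tested, is under 0.05. Counts at an unadjusted p under 0.05 are given without the share of all genes. They are thus not read as an excess or a lack. The tissue labels fitted the marker lists: 9 striatal neuron genes summed to between 10535 and 11915 CPM in WT striatum and between 340 and 410 in WT cerebellum, and 7 granule cell genes to between 26.1 and 38.3 and between 5648 and 6477. Among the striatal libraries, WT replicate 1 stood apart from the other WT libraries (chi-square per degree of freedom of 27.2 and 26.9, against 6.52 between those 2). Its Xist and Y-linked transcripts also put it, with cKO replicate 1, in the other sex from the remaining 4 striatal libraries, while cerebellum held 2 libraries of each sex per genotype. For the 8 genes and Shld2 the striatal log2 fold change is also given without this library. Leaving it out makes cKO replicate 1 the only striatal library of its sex, so sex is then not balanced between the genotypes. In all, 5 B lymphocyte genes summed to at most 0.967 CPM in any library.

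Thap1 (chr8:26158141-26164151, mm10) checked the labels and was lower in the cKO libraries of both tissues. In striatum it stood at 13.2, 14.4 and 15.3 CPM in WT and at 5.24, 7.65 and 3.76 CPM in cKO, a log2 fold change of −1.36 (SE 0.231) whose adjusted p of 0.0562 in edgeR's quasi-likelihood test missed the threshold of 0.05. In cerebellum it stood at 10.3, 8.15, 10.5 and 8.31 CPM in WT and at 7.34, 7.45, 7.78 and 6.84 CPM in cKO, which is −0.34 on the log2 scale (SE 0.100, adjusted p = 0.0488 in edgeR's test). That call was lost in 6 of the 8 fits that left out a library (all but WT replicates 2 and 4), at adjusted p of 0.0659 to 0.170, and the striatal drop was called without WT replicate 1 (adjusted p = 0.0248). No WT library lay inside the cKO range, and exact permutation tests (two-sided) gave p = 0.1 for striatum and p = 0.0286 for cerebellum, the smallest that 3 against 3 and 4 against 4 samples allow. As the removed exons are not known here, counts from a remaining part of the transcript may enter these levels, which was not tested.

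Shld1, a small subunit of shieldin that binds SHLD2, was the gene of the list with a large genotype difference in both tissues. In WT striatum it stood at 6.35, 8.96 and 8.53 CPM, a mean of 7.95 ± 1.40 (SD, n = 3), from 78 to 121 counts per library. In cKO striatum it stood at 1.36, 1.82 and 1.25 CPM, a mean of 1.48 ± 0.299 (SD, n = 3), from 16 to 24 counts. Every cKO library thus lay far below every WT library, and the cKO mean was 18.6% of the WT mean. In WT cerebellum the 4 libraries stood at 8.84, 9.28, 9.38 and 10.1 CPM, a mean of 9.40 ± 0.517 (SD, n = 4), from 177 to 244 counts. In cKO cerebellum they stood at 1.04, 1.47, 1.66 and 1.43 CPM, a mean of 1.40 ± 0.260 (SD, n = 4), from 21 to 41 counts. The cKO mean there was 14.9% of the WT mean, again with no overlap, and counts above 0 remained in each of the 7 cKO libraries. The fitted log2 fold change was −2.42 (SE 0.237) in striatum and −2.73 (SE 0.129) in cerebellum. Its difference between the tissues was −0.32 (SE 0.260), a distance of little more than its own SE. For Thap1 the larger drop was in striatum, a difference between the tissues of 1.01 (SE 0.237) that was not called (adjusted p = 0.0884 in edgeR's test). Without WT replicate 1 the striatal log2 fold change of Shld1 was −2.56.

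**Figure D1:**
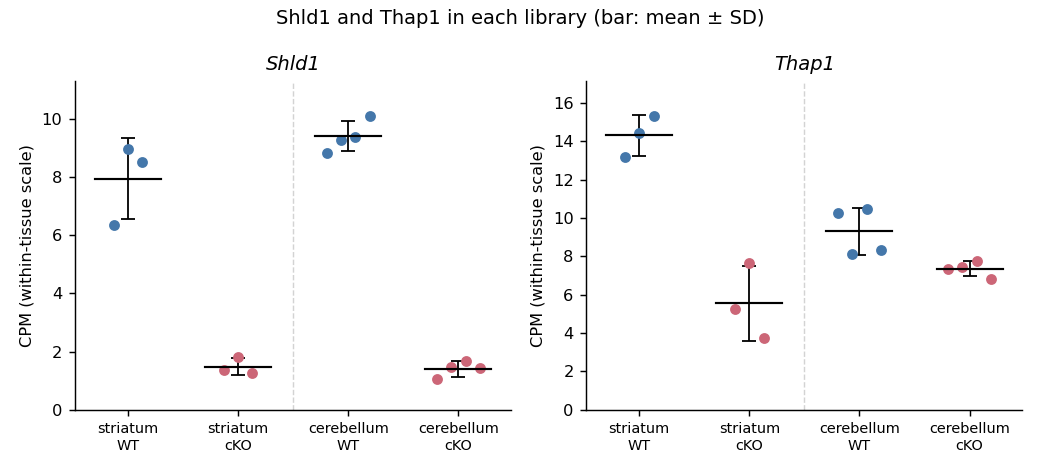
Counts per 1000000 (CPM) of Shld1 (left) and Thap1 (right) in each library, scaled within each tissue; points are libraries in replicate order, lines are group means and bars SD (n = 3 per striatal and 4 per cerebellar group), with WT in blue and cKO in red. All cKO libraries lie below all WT libraries of their tissue, and Shld1 is at 1.04 to 1.82 CPM in every cKO library while Thap1 stays at 6.84 CPM or more in cKO cerebellum.

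These are bulk samples, in which fewer cells of a type and less RNA per cell cannot be told apart. Mature oligodendrocyte markers moved in the same direction as Shld1. All 10 measured genes of that list were lower in cKO in both tissues, where 49.4% and 48.4% of all tested genes were, and none was at 0. Of the 10, 5 were called in striatum, against 0.384% of all genes, and 7 in cerebellum, against 7.59%. Their summed level ran from 7938 to 9686 CPM in WT striatum and from 5059 to 6279 in cKO striatum, and from 4954 to 5482 in WT cerebellum and from 4287 to 4824 in cKO cerebellum. The median log2 fold change of the list was −0.80 in striatum and −0.23 in cerebellum, smaller than that of Shld1 in both. The part of this list in the Shld1 values was not tested. Of the 12 marker lists, 4 more had sums that did not overlap between genotypes in a tissue, the dividing-cell list given beside Bard1 among them. In cerebellum 6 meningeal genes summed to 264 to 319 CPM in cKO against 176 to 223 in WT, opposite in direction to Shld1. In striatum 6 choroid plexus and ependymal genes summed to 58.5 to 198 CPM in cKO against 42.4 to 47.8 in WT. Their cerebellar sums overlapped and varied widely between libraries, from 29.3 to 2021 CPM in WT and from 682 to 3276 in cKO. The 5 genes of the Purkinje cell list summed to 2181 to 2454 CPM in cKO striatum against 2573 to 2762 in WT, and to 9865 to 10719 CPM in cKO cerebellum against 9243 to 9751 in WT. The part of these lists in the Shld1 values was not tested.

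Shld1 spans chr2:132686931-132751055 on the plus strand (mm10, GENCODE), with 2117 bases of annotated exon, of which 48 overlap the antisense gene Gm14097. The strand setting of the counting is not given, so reads from those 48 bases could come from either gene. Its promoter is shown because THAP1 is a DNA-binding protein and the Shld1 transcript was the one that differed. RefSeq's promoter table (build GRCm38.p6) lists 3 start sites for it. The 250 bases before the first start site, chr2:132686681-132686930, plus strand, are printed with the matches to TNNNGGCA, the published THAP1 binding sequence, and to GCCATNTT, the core sequence of the zinc-finger factor YY1, in capitals. Both were searched on both strands, and the 2 motifs share no position here.
Shld1, first start: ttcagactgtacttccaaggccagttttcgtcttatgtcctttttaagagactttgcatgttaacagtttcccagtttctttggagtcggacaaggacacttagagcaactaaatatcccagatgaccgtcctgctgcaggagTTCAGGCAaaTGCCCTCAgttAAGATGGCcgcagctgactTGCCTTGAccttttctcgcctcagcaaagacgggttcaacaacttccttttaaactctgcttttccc
The THAP1 sequence matched 3 times, beginning 107, 97 and 67 bases before the start, as TTCAGGCA on the gene's strand and as TGCCCTCA and TGCCTTGA on the other. The YY1 sequence matched once, as AAGATGGC on the other strand, 86 bases before the start and between the second THAP1 match and the last. Of 32851 promoters in the table, 36.4% held a THAP1 match in the same 250 bases, 3.91% a YY1 match, 1.4% at least 3 THAP1 matches, and 0.067%, or 22 promoters, at least 3 THAP1 matches and, anywhere in the window, a YY1 match. In the window that runs on to 50 bases past the start, 43 promoters, or 0.131%, held both. A single THAP1 match is thus common. The shares for at least 3 THAP1 matches, alone or with YY1, use the number of matches that this start holds. It is also only the first of 3 start sites, so these shares describe it and test nothing. A match describes letters and is no evidence of binding.

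Of the 8 genes, 7 had an entry in the promoter table, with 10 start sites, and Rif1 had none and was not searched. Besides the first start of Shld1, THAP1 matches stood before its last start, before Trp53bp1 and before Rnf8, 1 each, a share of 4 in 10 member promoters near the 36.4% of all promoters. No member promoter other than that of Shld1 held a YY1 match. The matches outside the first Shld1 start are shown with 10 bases on either side, in capitals, on the strand of the gene, for comparison with the cluster above.
Shld1, last start: atagtattccTGCCTTTAaataatgctt
Trp53bp1: acccccgtccTTCAGGCAggggttttta
Rnf8: tctccacgctTGCCAGCAagtagcttta
They lie at chr2:132690399-132690426, chr2:121271622-121271649 and chr17:29614635-29614662, 189, 232 and 144 bases before their starts. The match before Trp53bp1 has the same 8 letters as the first of the 3 before Shld1. No match to either sequence was found in these 250 bases before Mad2l2, Brca1, Bard1, Rnf168 or Fam35a, the gene of SHLD2.

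For the other measured subunits of shieldin the genotypes overlapped. Mad2l2 (chr4:148130384-148145699, plus strand), whose product REV7 joins SHLD3 to the rest of shieldin and also serves the translesion polymerase zeta, stood at 5.53, 7.18 and 8.77 CPM in WT striatum and at 8.44, 6.44 and 6.12 CPM in cKO striatum. In cerebellum it stood at 6.89, 7.94, 7.07 and 7.82 CPM in WT and at 7.74, 8.88, 8.19 and 7.66 CPM in cKO. The genotypes overlapped in both tissues, with log2 fold changes of −0.03 (SE 0.214, adjusted p = 0.973) and 0.13 (SE 0.0898, adjusted p = 0.446) in edgeR's test. Without striatal WT replicate 1 the striatal value was −0.18. Fam35a, the gene of SHLD2, the subunit that binds single-stranded DNA, is listed here beside the 8 genes. It stood at 7.33, 8.96 and 7.26 CPM in WT striatum against 6.88, 6.74 and 7.92 CPM in cKO, and its cerebellar mean was 8.57 ± 0.934 CPM for WT libraries and 9.01 ± 0.447 CPM for cKO libraries (SD, n = 4 each). Its genotypes overlapped too, with log2 fold changes of −0.13 (SE 0.163) and 0.07 (SE 0.0917) that were not called, and −0.18 in striatum without WT replicate 1. Shld3 was not matched to a symbol and was not analysed here.

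The balance of subunit transcripts within a library can be compared after dividing each CPM, on the common scale, by the length of the gene's annotated exons in kb. Shld1 per kb was 274% ± 41.9 of Shld2 per kb in WT striatum (SD, n = 3) and 56.5% ± 15.3 in cKO striatum. In cerebellum the shares were 299% ± 33.0 in WT (SD, n = 4) and 42.4% ± 9.47 in cKO. Shld1 therefore passed from the more to the less abundant of the pair in both tissues. Against Mad2l2 the shares were 139% ± 17.2 and 26.8% ± 7.59 in WT and cKO striatum and 157% ± 8.54 and 21.3% ± 3.64 in WT and cKO cerebellum. These shares carry the Shld1 difference itself and are a description. With exon lengths from the basic annotation, the shares of Shld2 were 331% and 68.1% in striatum and 360% and 51.1% in cerebellum.

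Trp53bp1 (chr2:121193281-121271407, minus strand), whose product 53BP1 is the scaffold that reads the histone marks, was close between genotypes. It stood at 177, 135 and 128 CPM in WT striatum and at 141.7, 129.99 and 149.996 CPM in cKO striatum. In cerebellum it ran from 129 to 151 CPM in WT (139 ± 9.29, SD, n = 4) and from 127 to 139 CPM in cKO (133 ± 5.05, SD, n = 4). The genotypes overlapped in both tissues, and the log2 fold change was −0.06 in both, with SE 0.129 in striatum and SE 0.0447 in cerebellum (adjusted p of 0.901 and 0.445 in edgeR's test). Without striatal WT replicate 1, the highest library, the striatal value turned to 0.10 and remained not called. Its exons overlap those of Tubgcp4, on the opposite strand, over 2130 bases, so part of its counts is uncertain.

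Rif1 (chr2:52072832-52122383, plus strand), which links 53BP1 to shieldin and also times DNA replication, was lower in cKO by a smaller amount that was not called. In striatum it stood at 56.8, 43.4 and 41.8 CPM in WT and at 39.5, 39.7 and 37.5 CPM in cKO. The WT libraries all lay above the cKO libraries, with log2 fold change −0.28 (SE 0.129, adjusted p = 0.709 in edgeR's test) and an exact permutation p of 0.1, the smallest possible. Replicate 1 was the highest WT library, and without it the value was −0.13. In cerebellum Rif1 stood at 342, 264, 335 and 237 CPM in WT and at 205, 228, 255 and 202 CPM in cKO, with 1 WT library inside the cKO range. The log2 fold change there was −0.40 (SE 0.148, adjusted p = 0.177). limma-voom with quality weights called it, at −0.39 (adjusted p = 0.0431), and was the only setting tried to call any of these genes in a genotype comparison. Among the alternatives the cerebellar value ran from −0.49 to −0.32 and the striatal one from −0.37 to −0.13.

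The ubiquitin ligases showed differences of at most 0.12 in size on the log2 scale. Rnf8 (chr17:29614790-29644991, plus strand), which starts the histone mark, stood at 26.1, 38.3 and 33.9 CPM in WT striatum and at 39.5, 35.2 and 32.2 CPM in cKO, a log2 fold change of 0.12 (SE 0.150) that turned to −0.01 without WT replicate 1. In cerebellum it averaged 40.8 ± 1.07 CPM over WT and 42.2 ± 1.70 CPM over cKO libraries (SD, n = 4 each), 0.05 on the log2 scale (SE 0.0446). Both overlapped and neither was called. It shares 1542 bases of exon with Gm28043 on the same strand, so its counts depend on how shared reads were assigned. Rnf168 (chr16:32277459-32301434, plus strand), which extends the mark, stood at 53.5, 47.4 and 50.97 CPM in WT striatum and at 45.0, 51.5 and 52.3 CPM in cKO, overlapping, with a log2 fold change of −0.03 (SE 0.101), or 0.02 without WT replicate 1. In cerebellum it stood at 61.4, 60.3, 61.0 and 59.8 CPM in WT and at 58.6, 55.6, 59.2 and 57.3 CPM in cKO. Here the genotypes did not overlap, by a narrow margin, with an exact two-sided permutation p of 0.0286, the smallest possible, and a log2 fold change of −0.07 (SE 0.0388) that edgeR did not call (adjusted p = 0.289).

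On the opposing side, Brca1 (chr11:101488764-101551955, minus strand), the tumour suppressor that promotes resection, stood at 3.74, 6.88 and 6.06 CPM in WT striatum and at 5.24, 5.91 and 4.16 CPM in cKO. In cerebellum it stood at 1.55, 2.51, 2.27 and 1.57 CPM in WT and at 2.48, 2.25, 2.51 and 2.32 CPM in cKO. Both comparisons overlapped, with log2 fold changes of −0.13 (SE 0.252, adjusted p = 0.897) and 0.28 (SE 0.179, adjusted p = 0.385) in edgeR's test, and −0.34 in striatum without WT replicate 1. Bard1 (chr1:71027498-71103146, minus strand), the partner that stabilises BRCA1, was the least abundant gene of the list. It stood at 1.38, 1.26 and 0.957 CPM in WT striatum, from 12 to 17 counts, and at 0.817, 0.379 and 0.392 CPM in cKO striatum, from 5 to 12 counts. All WT libraries lay above all cKO libraries, with a log2 fold change of −1.14 (SE 0.402), an unadjusted p of 0.0193 and an adjusted p of 0.550 in edgeR's test, so it was not called. Without WT replicate 1 the value was −1.03. In cerebellum each library held 2 to 13 counts and Bard1 did not pass the filter on low counts. Dividing-cell markers moved beside it in striatum: all 7 tested of 9 were lower in cKO and none was called, their sum ran from 20.7 to 35.2 CPM in WT and from 13.3 to 18.3 in cKO, and none of the 9 was at 0 throughout a group. In cerebellum that sum ran from 4.18 to 5.49 CPM in WT and from 3.71 to 5.16 in cKO. Its part in the Bard1 values was not tested.

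**Figure D2:**
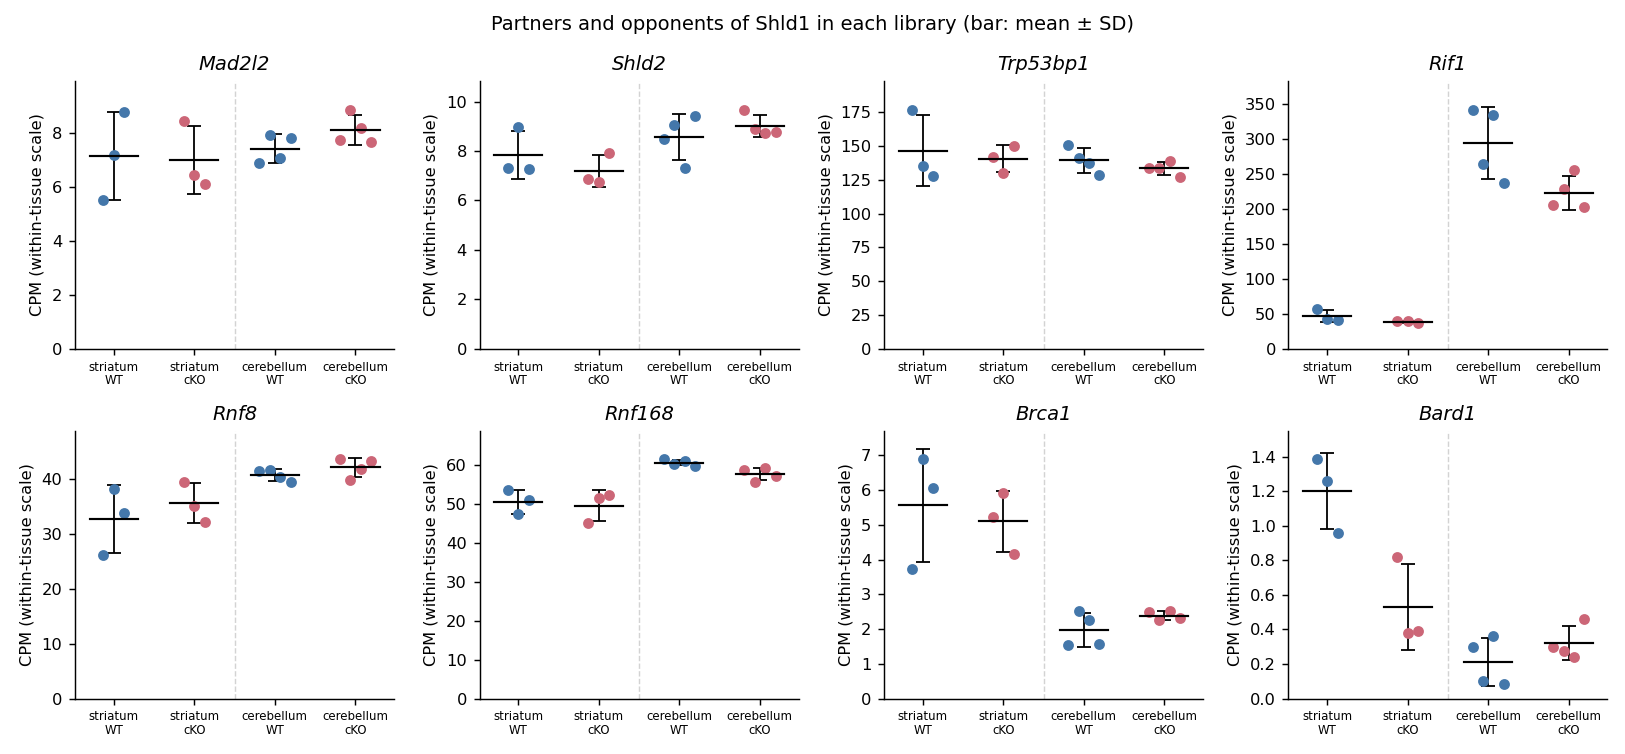
CPM of the other 7 genes and of Shld2 in each library, scaled within each tissue; points are libraries, lines are group means and bars SD (n = 3 per striatal and 4 per cerebellar group), WT in blue and cKO in red. The genotypes overlap in most panels, and they are apart for Rif1 and Bard1 in striatum and for Rnf168 in cerebellum.

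Counted together, 0 of the 7 genes were called in striatum and 0 of the 6 that could be tested were called in cerebellum. At an unadjusted p under 0.05 there was 1 in each, Bard1 in striatum and Rif1 in cerebellum, and the share of all genes at that p is not given here. The background was 0.384% of 14080 tested genes called in striatum and 7.59% of 14775 in cerebellum, so a count of 0 among 6 or 7 is near what those shares give. The genotypes did not overlap for 2 of 7 in striatum, Rif1 and Bard1, against 15.1% of all tested genes, and for 1 of 6 in cerebellum, Rnf168, against 14.3%. DESeq2 called 0 in both tissues as well. The median log2 fold change of the tested members was −0.06 in striatum and −0.01 in cerebellum, beside 0.00 over all genes in both. The difference between the tissues' genotype effects was called for 0 of 7, where 0.39% of 15401 genes were called. The largest was that of Bard1, 1.75 (SE 0.624, adjusted p = 0.288 in edgeR's test, unadjusted p = 0.0131), and it rests on 2 to 17 counts per library.

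**Figure D3:**
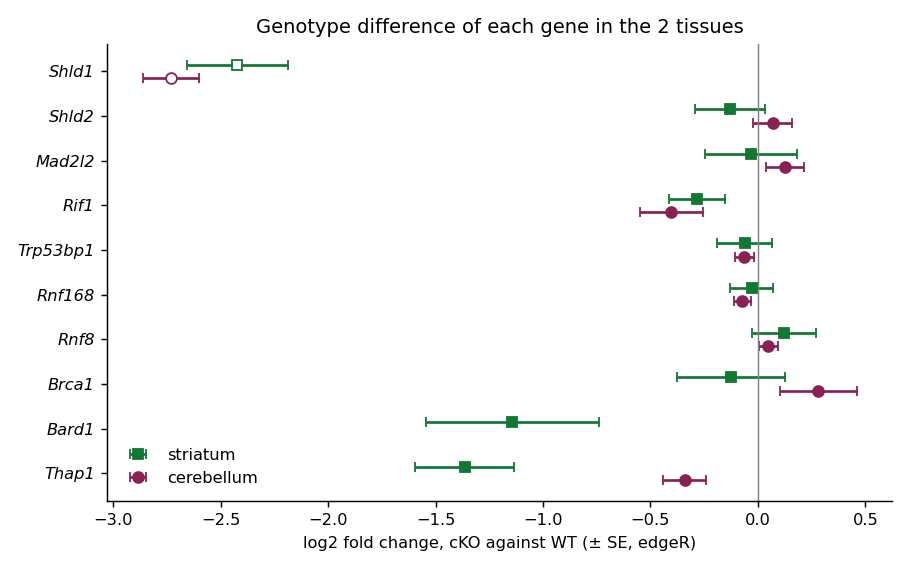
Fitted log2 fold change of cKO against WT with its SE for each gene, in striatum (squares) and cerebellum (circles); Shld1 has open symbols because it was listed for this difference, and Bard1 was not tested in cerebellum. Shld1 lies at −2.42 and −2.73, while the other genes of the pathway lie between −0.40 and 0.28 except Bard1 at −1.14 in striatum.

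The comparison of WT striatum with WT cerebellum did not enter the choice of the genes and asked how the pathway is set in the 2 tissues without the knockout. On the common scale Shld1 stood at 6.74, 9.54 and 9.11 CPM in striatum and at 8.46, 8.89, 9.003 and 9.64 CPM in cerebellum. The tissues overlapped, with a log2 difference of −0.08 (SE 0.136, adjusted p = 0.604 in edgeR's test, exact permutation p = 0.743), and the sign turned to 0.04 without striatal WT replicate 1. Of the 8 genes 3 were called, where 64.2% of 15031 tested genes were, and 4 did not overlap between the tissues, where 65.8% of all genes did not. Rif1 was lower in striatum, at 50.4 ± 8.63 CPM (SD, n = 3) against 282 ± 49.9 CPM in cerebellum (SD, n = 4), 17.9% of the cerebellar level (log2 difference −2.48, SE 0.170, adjusted p = 1.32e-06). Brca1 was higher in striatum, at 5.92 ± 1.74 against 1.89 ± 0.471 CPM (log2 difference 1.65, SE 0.255, adjusted p = 0.000304). Bard1 was higher there too, at 1.28 ± 0.230 against 0.203 ± 0.135 CPM (log2 difference 2.63, SE 0.443, adjusted p = 0.000548), on counts of 2 to 17 per library. BRCA1 and BARD1 work as a pair, and their transcripts differed in the same direction, opposite to that of Rif1. The dividing-cell sum was also higher in WT striatum, 20.7 to 35.2 against 4.18 to 5.49 CPM, and its part in the Brca1 and Bard1 values was not tested. Trp53bp1 (0.23), Mad2l2 (0.10), Rnf8 (−0.16), Rnf168 (−0.10) and Shld2 (0.03) were not called. These log2 differences had SEs of 0.116, 0.158, 0.114, 0.0694 and 0.137. Without striatal WT replicate 1 the difference of Trp53bp1 was 0.06 (adjusted p = 0.380), that of Mad2l2 0.25 (0.123) and that of Rnf8 −0.03 (0.720). Trp53bp1 was called with a sex score as covariate (0.26, adjusted p = 0.0190), in 1 model of all 14 libraries (0.23, adjusted p = 0.0371) and without striatal WT replicate 3 (0.33, adjusted p = 0.0387). Rnf168 was called without striatal WT replicate 1 (−0.16, adjusted p = 0.0253) and with limma-voom (−0.14, adjusted p = 0.0487), and Rnf8 without striatal WT replicate 2 (−0.28, adjusted p = 0.0463).

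Levels per kb of exon, again on the common scale, order the genes within a tissue. In WT striatum Rnf168 (12.1 ± 0.715 CPM per kb, SD, n = 3) and Trp53bp1 (11.02 ± 1.95) led and overlapped each other. Then came Rif1 (4.79 ± 0.821), Shld1 (4.00 ± 0.713), Rnf8 (2.98 ± 0.565) and Mad2l2 (2.91 ± 0.667), each overlapping the next. Shld2 (1.46 ± 0.179), Brca1 (0.694 ± 0.204) and Bard1 (0.226 ± 0.0406) followed without overlap. Shld1 was thus number 4 of the 9 and its shieldin partner Shld2 lay clearly below it. In WT cerebellum the order was Rif1 (26.8 ± 4.75 CPM per kb, SD, n = 4), Rnf168 (13.0 ± 0.172), Trp53bp1 (9.43 ± 0.631), Shld1 (4.25 ± 0.231), Rnf8 (3.34 ± 0.0897), Mad2l2 (2.71 ± 0.191), Shld2 (1.43 ± 0.154), Brca1 (0.222 ± 0.0552) and Bard1 (0.0359 ± 0.0238), with no overlap between neighbours. In cKO Shld1 was number 7 of the 9 in both tissues, at 0.745 ± 0.149 CPM per kb in striatum, where it overlapped Brca1 (0.638 ± 0.109), and at 0.628 ± 0.117 in cerebellum, above Brca1 (0.266 ± 0.0138). With exon lengths of the basic annotation Trp53bp1 came before Rnf168 in all 4 groups, and Rnf8 came before Shld1 in both WT groups.

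**Figure D4:**
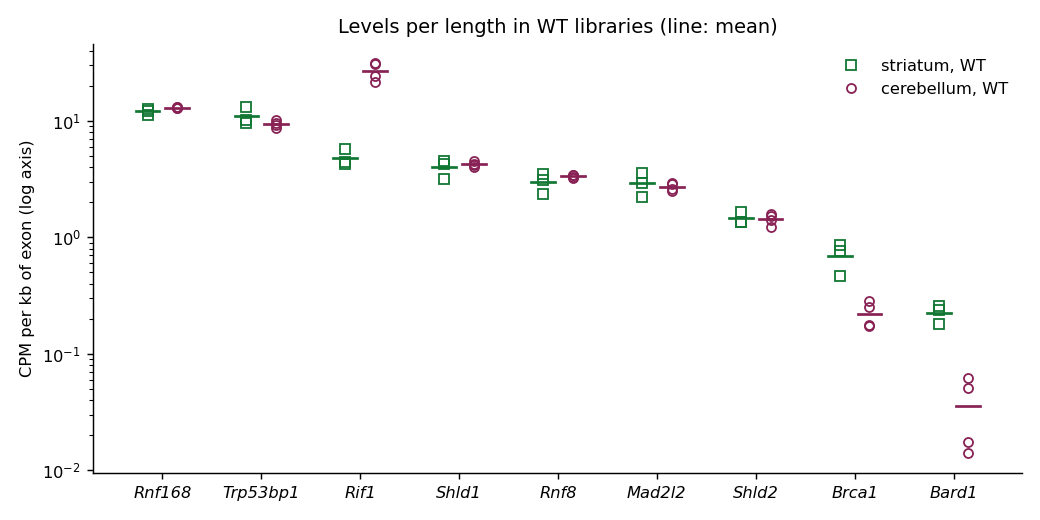
CPM per kb of annotated exon in each WT library (log axis, scale common to the 14 libraries) for the 8 genes and Shld2, in striatum (squares) and cerebellum (circles), with lines at the means. Shld1 lies at about the same level in both tissues (4.00 and 4.25), while Rif1 is higher in cerebellum and Brca1 and Bard1 are higher in striatum.

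The wider machinery was followed in 5 lists that together held 72 measured genes, the 8 included: end protection by 53BP1 (18 genes), the ubiquitin signal at breaks (15), BRCA1 and resection (21), end joining (12) and other partners of REV7 (6). Shld1 itself was left out of the genotype counts. In striatum 0 of 66 tested genes were called by edgeR, 2 had an unadjusted p under 0.05, DESeq2 and limma-voom called 0, and their median log2 fold change was −0.03, beside 0.00 over all genes. In cerebellum 3 of 67 were called, 1 higher and 2 lower, against 7.59% of all genes, with a median of 0.03. Rpa2, a subunit of the RPA complex that coats single-stranded DNA, fell from a WT mean of 15.5 ± 0.363 CPM to 11.2 ± 1.57 in cKO (SD, n = 4 each), −0.47 on the log2 scale (SE 0.0883, adjusted p = 0.00331 in edgeR's test). Rev1, a translesion polymerase that binds REV7, fell from 49.9 ± 2.07 to 43.6 ± 2.84 CPM (−0.19, SE 0.0512, adjusted p = 0.0298). Prkdc, the catalytic subunit of DNA-PK, which holds broken ends for joining, rose from 49.5 ± 2.78 to 57.4 ± 3.84 CPM (0.21, SE 0.0540, adjusted p = 0.0232). The cKO means were 72.2%, 87.4% and 116% of the WT means. Exons of Rev1 overlap those of Eif5b on the opposite strand over 1643 bases, so its value is uncertain. Leaving out a library ended the call of Prkdc for WT replicates 3 and 4 and cKO replicates 1 and 2 (adjusted p from 0.0537 to 0.0840) and that of Rev1 for WT replicates 1 and 2 and cKO replicates 1 and 2 (0.0503 to 0.105). All 3 lost it in 1 model of the 14 libraries, and Rev1 also with a replicate block. Of the uncalled genes, Trip13, an ATPase that takes REV7 out of shieldin, had means of 0.734 CPM (WT) and 1.30 CPM (cKO) in cerebellum without overlap, 0.80 on the log2 scale (SE 0.256, adjusted p = 0.0711), and was picked out after its value was seen. The interaction was called for 0 of 69 genes by edgeR, with 7 at an unadjusted p under 0.05, and for 0 by DESeq2 and limma-voom.

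By list, the cerebellar calls were 1 of 18 tested genes of BRCA1 and resection, 1 of 12 of end joining, 1 of 6 REV7 partners, and 0 of 17 of end protection and 0 of 14 of the ubiquitin signal by edgeR. At an unadjusted p under 0.05 in edgeR's test there were 3 genes of BRCA1 and resection, 4 of end joining and 2 REV7 partners. For end protection and the ubiquitin signal there were 5 and 1. The share of all tested genes at that p is not given here, so these counts show neither an excess nor a lack. Key members that were not called included Mdc1, the adaptor that brings RNF8 to breaks, at means of 50.6 (WT) and 49.9 CPM (cKO) in cerebellum, and Paxip1, which binds 53BP1 to help class switching, at 50.3 and 46.7 CPM. Between the WT tissues, in contrast, 40 of 69 genes were called, 18 higher and 22 lower in striatum, near the 64.2% of all genes. Of the 19 tested genes of BRCA1 and resection 10 were lower in striatum, among them Brca2, a mediator of homologous recombination (4.83 against 14.6 CPM), Blm, a helicase (4.60 against 10.5 CPM) and Palb2 (1.37 against 3.08 CPM), while Brca1, Bard1 and Bre were higher. The CPM here are on the common scale. The values of Bre overlapped between the tissues, and its call was lost in 5 of the 7 fits that left out a library, all but striatal WT replicate 1 and cerebellar WT replicate 4, at adjusted p from 0.0515 to 0.104. The list's median log2 difference was −0.33, beside −0.03 over all genes. Brca1 and Bard1 differed in the opposite direction from those 10 genes, which were grouped by their direction, so this is a description. In the end protection list Prim1 and Pola1, the primase and polymerase alpha that refill trimmed ends, were lower in striatum with Rif1, and Dynll1, which helps 53BP1 to form oligomers, and Obfc1 (now Stn1) were higher. Pagr1a, listed as 2900092E17Rik, was lower too, at 27.0 against 158 CPM, on the common scale, but its exons overlap those of Gm42742 on the same strand over 1412 bases and its counts are uncertain.

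The 5 nearest tested genes on either side of Shld1 on chromosome 2 were compared as its neighbourhood. In striatum 0 of the 10 were called by edgeR, against 0.384% of all genes, 2 had an unadjusted p under 0.05, and limma-voom called 1, Chgb. In cerebellum 2 were called, against 7.59%: Gpcpd1, a phosphodiesterase of lipid metabolism whose start lies 157.8 kb before that of Shld1, rose from 141 to 177 CPM, 0.33 on the log2 scale (SE 0.0466, adjusted p = 0.000602 in edgeR's test), and Trmt6, a tRNA methyltransferase subunit 117.3 kb after it, fell from 49.1 to 41.97 CPM (−0.23, SE 0.0488, adjusted p = 0.00852). The call of Trmt6 was lost in 1 model of the 14 libraries (−0.24, adjusted p = 0.0686). Chgb, the gene next after Shld1, had log2 fold changes of −0.45 in striatum (adjusted p = 0.598; 0.0165 at −0.62 without WT replicate 1) and −0.12 in cerebellum, not called. Prokr2, a prokineticin receptor, had a mean of 1.29 CPM in WT and 5.20 CPM in cKO cerebellum without overlap and was not called (2.02 on the log2 scale, SE 0.516, adjusted p = 0.0687). It was called in 7 of 15 alternatives, at adjusted p from 0.00349 to 0.0395. The replication and repair genes Pcna and Mcm8 and the genes Tmem230 (listed as 5730494N06Rik), Cds2, Crls1 and Bmp2 overlapped between genotypes in both tissues. No neighbour had a decrease near that of Shld1, the lowest value being −0.56, for Prokr2 in striatum.

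**Figure D5:**
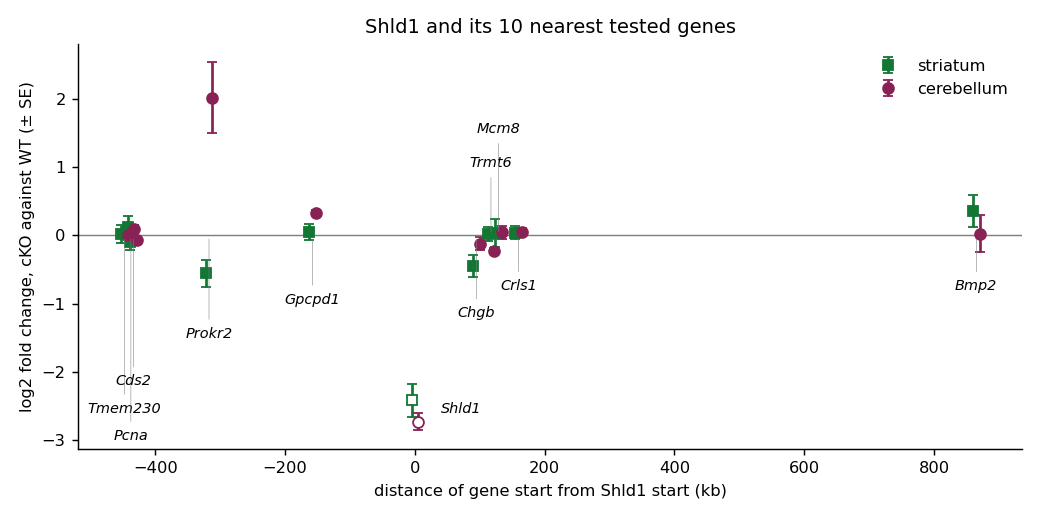
Fitted log2 fold change of cKO against WT with its SE for the 10 nearest tested genes on chromosome 2, by the distance of their start from that of Shld1 in kb, in striatum (squares) and cerebellum (circles); Shld1 itself has open symbols. All neighbours but Prokr2, at −0.56 and 2.02, lie between −0.45 and 0.35 in both tissues.

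Genes whose pattern over the 14 libraries was most like that of Shld1 were ranked by the root mean square difference of log2 CPM, each gene centred on its own mean, among 14057 genes with a mean of at least 1 CPM. The 5 nearest were Cln3, the gene of juvenile Batten disease, whose product sits in lysosomes (0.338), Cradd, whose product links the PIDD protein to a caspase (0.357), Ech1, an isomerase of fatty acid oxidation (0.393), Cuedc2, a ubiquitin-binding protein (0.528), and the zinc-finger gene Zfp882 (0.608), against a median of 1.335 over the ranked genes. Ranking by likeness chose their genotype difference, so it is a description. On the common scale Cln3 stood at 13.96 ± 1.47 and 3.75 ± 0.381 CPM in WT and cKO striatum (SD, n = 3) and at 14.5 ± 0.283 and 3.51 ± 0.375 CPM in WT and cKO cerebellum (SD, n = 4). Cradd stood at 7.66 and 1.11 CPM in striatum and at 5.32 and 0.781 CPM in cerebellum. Zfp882 was the odd one, at 45.1% of WT in striatum and 13.3% in cerebellum. No other gene of the 53BP1 or BRCA1 lists was among the 5.

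Of these 5 genes, 4 held a YY1 match in the 250 bases before a start site, like Shld1, where 3.91% of all promoters do, and 3 held a THAP1 match, where 36.4% do. The counts are of genes and the shares of promoters. By promoter, 4 of the 6 of these genes and 1 of the 3 of Shld1 held a YY1 match. With the window run on to 50 bases past the start, Cradd (2) and Zfp882 (1) also held THAP1 matches, where 42% of all promoters do. The genes were chosen for their pattern, so these counts are a description. All 8 YY1 matches of Shld1 and these genes in the 250 bases are shown, on the strand of the gene. Each has 10 bases on either side and the match in capitals.
Shld1: gccctcagttAAGATGGCcgcagctgac
Ech1, first: gcccttagtaAAGATGGCgaactaggtg
Ech1, second: gcccttgaccAACATGGCgaacgttcgt
Cradd, first: tcccacagcaAACATGGCggaacaaact
Cradd, second: gccctcaacaAAGATGGCtacagcactt
Cuedc2, first: acccaaaacaAAAATGGCcgccggagga
Cuedc2, second: gcccttctcaAAAATGGCcaccacggcg
Zfp882: gagcatcaccGCCATCTTtctttctggt
In the same order they lie at chr2:132686835-132686862, chr7:28825208-28825235, chr7:28825277-28825304, chr10:95324194-95324221, chr10:95324149-95324176, chr19:46338776-46338803, chr19:46338683-46338710 and chr8:71908444-71908471. The matches begin 86, 120, 51, 74, 29, 133, 40 and 152 bases before the start. Besides the YY1 letters, the match of Shld1 and 4 of the 7 others are preceded by the letters GCCCT, 10 bases before the match begins. Over all promoters, 40 of 1343 YY1 matches, or 2.98%, have these letters there. In Shld1 and in the first Ech1 stretch those letters belong to a THAP1 match on the other strand that begins 11 bases before the YY1 match, as TGCCCTCA in Shld1 and TGCCCTTA in Ech1, an arrangement found in 38 of all 32851 promoters. Both spacings were looked for after these stretches had been seen, so they describe them and test nothing.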

How the data were processed

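RNA from dissected striatum (3 WT, 3 cKO) and cerebellum (4 WT, 4 cKO) of mice was sequenced. The deposited values are whole-number counts of reads per gene symbol, not normalized. The submitters' processing notes name cutadapt 1.13, STAR, HTSeq 0.6.1p1, DESeq2 and the build mm10, with no order, and the annotation and strand setting of the counting are unknown here. The 8 genes and all lists were chosen with earlier results of these data known.

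Counts were tested with edgeR 4.0.16 (R 4.3.3): TMM factors, filterByExpr (minimum count 10, minimum total 15), robust quasi-likelihood test, Benjamini-Hochberg adjustment over all genes tested, called at an adjusted p under 0.05. Each tissue was fitted alone, the WT tissues with each other, and the interaction over all 14 libraries. SE is the log2 fold change divided by the root of its F. The steps were run on simulated counts with 1 mean per gene and known changes added. Those counts do not imitate an outlying library, so this check does not cover one. Single-gene exact permutation tests were two-sided. Alternatives were DESeq2 size factors, no filter, DESeq2 1.42.0, limma-voom (limma 3.58.1) with quality weights, a sex score, all libraries in 1 model, the replicate number as a block, library totals, and leaving out each library.

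Library totals of 12595941 to 28099205 counts make genes of a few counts, such as Bard1, imprecise. Levels between genes were compared per kb of merged GENCODE exons (build GRCm38). Of 74 listed pathway genes 72 matched a symbol. Named genes are the 8, SHLD2's gene, called list members (up to 6 per direction) with 1 to 3 key uncalled ones, the 5 nearest tested genes on each side of Shld1, and the 5 of most similar pattern. Patterns were compared on log2 CPM with a prior count of 2.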

Additional observations from a re-analysis of the deposited data

Results flagged for a closer look

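In groups of 4 libraries, the gap between an extreme library and its nearest neighbour was divided by the group's range and set against Dixon's 95% critical value for 4 samples, which chance passes in about 1 of 20 groups. Of 56 groups of values, from 28 genes, 2 passed. Fam35a, the gene of SHLD2, had its highest cKO cerebellum value in replicate 1, at 9.67 CPM against 8.72 to 8.88 CPM in the other 3, a ratio of 0.834. Prokr2, a neighbour of Shld1, had its highest WT cerebellum value in replicate 2, at 2.61 CPM against 0.799 to 0.906 CPM, a ratio of 0.941.

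For Zfp882, a gene of similar pattern to Shld1, the fitted genotype effect was larger in size in cerebellum than in striatum. Its log2 fold change was −1.15 in striatum and −2.90 in cerebellum, and the interaction was −1.76 (SE 0.218). It was flagged because edgeR called this interaction. Zfp882 was picked for its pattern over these same libraries, genotype difference included, so that call is no support and the values are a description.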

How the results depend on the processing

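The Shld1 fold changes kept their direction under every alternative listed in the methods, between −2.59 and −2.32 (striatum) and between −2.82 and −2.63 (cerebellum). Of 88 results for single genes 51 kept direction and call under all their alternatives, 20 changed sign, 11 lost a call and 6 gained one.

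The 54 genes called in striatum became 153 with DESeq2, 178 with limma-voom, 376 in 1 model of all libraries, 15 with the replicate number as a block, and 3 to 122 with a library left out (122 without WT replicate 1, 12 without WT replicate 3, 3 without cKO replicate 1, 12 without cKO replicate 2 and 3 without cKO replicate 3). The 1121 called in cerebellum became 251 in 1 model and 739 to 1165 with a library left out (739 without WT replicate 3 and 744 without cKO replicate 2). The 60 interaction calls became 228 with DESeq2, 13 with the replicate block and 17 to 193 with a library left out: 108 and 193 without striatal WT replicates 1 and 2, 24 and 17 without striatal cKO replicates 1 and 3, 21, 28, 20 and 19 without cerebellar WT replicates 1 to 4, and 21, 26, 24 and 20 without cerebellar cKO replicates 1 to 4. limma-voom called 1 of the 6 members in cerebellum, Rif1. With a library left out, Thap1 lay between −1.66 and −1.15 (striatum) and between −0.40 and −0.27 (cerebellum). With library totals its cerebellar value was −0.33 and not called. In the window up to 50 bases past the start, 42% of promoters held the THAP1 letters and 6.05% the YY1 letters. The causes were not tested.

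Sign changes concerned values near 0. With limma-voom, striatal values were 0.0896 for Trp53bp1, −0.0098 for Rnf8, 0.0083 for Rnf168, −0.0018 for Pcna, 0.0089 for Cds2, −0.019 for Trmt6 and −0.067 for Mcm8, the interaction of Rnf8 was 0.044, and the WT tissue difference of Shld1 was 0.020. Tmem230 (5730494N06Rik) was −0.0076 in cerebellum in 1 model. With a library left out, striatal values ran from −0.15 to 0.10 for Trp53bp1, −0.19 to 0.14 for Mad2l2, −0.34 to 0.057 for Brca1, −0.013 to 0.25 for Rnf8, −0.075 to 0.036 for Rnf168, −0.050 to 0.057 for Tmem230, −0.18 to 0.046 for Cds2, −0.026 to 0.15 for Gpcpd1, −0.026 to 0.062 for Trmt6 and −0.095 to 0.21 for Mcm8. In cerebellum they ran from −0.047 to 0.042 for Tmem230, −0.055 to 0.091 for Mcm8 and −0.11 to 0.29 for Bmp2. The interaction ran from −0.16 to 0.069 for Trp53bp1, −0.031 to 0.32 for Mad2l2 and −0.22 to 0.058 for Rnf8, and the WT tissue difference from −0.18 to 0.042 for Shld1, −0.060 to 0.25 for Mad2l2 and −0.073 to 0.089 for Shld2.

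Whether replicate numbers pair the samples is not stated and was not settled here. Deviations of same-numbered WT and cKO libraries correlated at 0.137, 0.0892 and 0.0589 in striatum, where each library correlated best with its own number, and at 0.336, 0.161, 0.0542 and 0.205 in cerebellum, where not all did. Exon lengths of the basic annotation were chosen after seeing the data. They moved the share of Shld1 against Shld2 in both WT groups, and against Mad2l2 in WT cerebellum, by more than its SD. The remaining shares against Shld2 and Mad2l2 moved by less than their SD. Counts of 2 to 17 per library limit Bard1 most.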
